A study of Bos taurus with 48 samples.

Results

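The comparison described here is between lactating Holstein-Friesian dairy cows that carried a small embryo at day 17 and cyclic cows killed on the same day of the cycle. Members were chosen by the deposited embryo size label: 5 of the 12 pregnant cows were labelled small, with a conceptus under 20 cm in length and under 40 mg in weight. The 5 cows were compared with the 10 cyclic cows in each of 2 tissues, the caruncular endometrium, the aglandular areas to which the placenta later attaches, and the intercaruncular endometrium, the glandular areas between them. The other 7 pregnant cows had a large embryo, over 20 cm and over 75 mg by the label, and they stand beside the small group only where the response is set against conceptus size.

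All 22 cows were synchronised, the pregnant ones received a blastocyst by embryo transfer at day 7, and both tissues were collected from every cow at slaughter on day 17. The cows were of mixed New Zealand and North American ancestry. The small-embryo cows are called S1 (Pregnant_932 in the labels), S2 (Pregnant_977), S3 (Pregnant_3807), S4 (Pregnant_3956) and S5 (Pregnant_9246), of which S1, S4 and S5 were labelled Fertile and S2 and S3 Sub-fertile. Of the large-embryo cows, 3 were labelled Fertile and 4 Sub-fertile. The titles of the cyclic cows name no fertility, so the comparison with cyclic cows could not be adjusted for it. Agilent bovine arrays, 48 in all, carried the RNA of 1 sample in Cy5 beside a pool of the 44 samples in Cy3, and dyes were never swapped. The small-embryo and cyclic cows account for 33 of these arrays, 3 of them repeats of cyclic cows that were averaged with the first array. Values are log2 ratios of the sample over the pool, so that a value belongs to 1 probe and levels of different genes cannot be compared.

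In ruminants the elongating conceptus secretes interferon tau, a type I interferon that acts on the uterus. It binds the IFNAR1 and IFNAR2 receptor chains, the kinases JAK1 and TYK2 are activated, and a transcription complex that contains IRF9 switches on interferon stimulated genes. In the luminal and glandular epithelium the same hormone is known to keep the oxytocin receptor low, so that pulses of prostaglandin F2 alpha do not end the life of the corpus luteum. The conceptus makes more interferon tau as it elongates, and until it attaches it is fed by histotroph, the secretions and transported nutrients of the endometrium.

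Genes are called risen or fallen below where they changed 1.5-fold or more at an adjusted p below 0.05 (limma, Benjamini-Hochberg over all probes tested). In the caruncular endometrium 618 of 14717 probes were differentially expressed between small-embryo and cyclic cows, or 4.2%, of which 491 rose (3.34%) and 127 fell (0.863%). In the intercaruncular endometrium 231 of 14715 were differentially expressed, or 1.57%, of which 168 rose (1.14%) and 63 fell (0.428%). Before adjustment p was under 0.05 (limma) for 3365 caruncular and 2444 intercaruncular probes. The unadjusted counts of lists below are to be read against these. All 5 small-embryo cows lay above all 10 cyclic cows for 291 caruncular probes (1.98%) and 183 intercaruncular probes (1.24%), and below them for 98 (0.666%) and 84 (0.571%). The median change over all caruncular probes tested was -0.05 on the log2 scale. In whole tissue, fewer cells of a type and less RNA per cell cannot be told apart.

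Array quality and slides were not balanced in every respect. The share of spots well above background had a median of 71.2% in small-embryo and 71.7% in cyclic caruncular arrays, and 70.9% and 70.0% in intercaruncular arrays, with cow S4 highest of the small group at 79.9% in the latter. The median signal over local background was 21.9 in both caruncular groups, but 14.7 in small-embryo and 11.7 in cyclic intercaruncular arrays (16.0 in large-embryo ones), and its part in the results was not tested. Cyclic cow Non-Pregnant_9778 had 7.6% and 5.08% outlier spots on its first caruncular and its intercaruncular array. Only 1 of the 7 slides of each tissue held a small-embryo cow (S3) and a cyclic cow (Non-Pregnant_3972), so slide and pregnancy state can hardly be told apart. A fixed block for the slide left 19 caruncular and 76 intercaruncular calls, and a random block 339 and 121. Without cow S4 the counts were 338 and 124, and without cow S1 the caruncular count was 360. On the shared slide, with 1 cow a group and no test, cow S3 exceeded cow Non-Pregnant_3972 in 33 of 34 antiviral effectors in the caruncular and 34 of 34 in the intercaruncular endometrium, by a median of 1.87 and 1.79 on the log2 scale, against -0.002 and -0.0004 over all probes.

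Markers of the conceptus itself did not separate the groups. The probe for IFNT, the interferon tau gene, was well above background on none of the arrays of any group. Of 12 trophoblast genes, DLX3 and ASCL2 had 0 probes on the array. Only 1 gene, by a probe with the symbol PAG1, passed the filter on low values, and that probe was above background on every array of the cyclic cows too. Its change was 0.21 in the caruncular (adjusted p = 0.614, limma) and -0.76 in the intercaruncular endometrium (adjusted p = 0.145, and under 0.05 before adjustment). Another PAG1 probe did not pass the filter. On intercaruncular arrays it was above background in 4 of 5 small-embryo, 4 of 7 large-embryo and 3 of 10 cyclic cows. On caruncular arrays the counts were 0 of 5, 1 of 8 and 1 of 13.

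The antiviral effectors, the interferon stimulated genes whose products block viral entry, replication or RNA, were already high with a short conceptus. Of 34 measured genes, 33 rose in the caruncular and 30 in the intercaruncular endometrium, none fell, and the median changes were 2.61 and 1.86 on the log2 scale. For 30 and 28 of them every small-embryo cow lay above every cyclic cow. Of all probes, 3.34% and 1.14% rose. A fixed slide block left 9 and 20 of the 34, and a random one 31 and 26.

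RSAD2 (chromosome 11, 90038987 to 90056291, ARS-UCD2.0) encodes viperin, an enzyme that makes a nucleotide terminating viral RNA synthesis. Its caruncular log2 ratio was 2.44 in cow S1, 2.00 in S4, 0.50 in S5, -0.01 in S2 and -0.42 in S3, and from -5.35 to -3.70 in the cyclic cows with a median of -4.06. The groups were far apart, and the difference of 5.15 (SE 0.38, adjusted p = 9.87e-09) was a 35.6-fold rise. Its intercaruncular values in the same order of cows were -1.20, -0.13, -1.96, -2.26 and -1.64, against -4.75 to -4.03 in the cyclic cows. That difference was 2.92 (SE 0.34, adjusted p = 6.77e-06), 7.55-fold.

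MX2 (chromosome 1, 141621179 to 141656965) encodes a dynamin-like GTPase that blocks viruses. Its caruncular log2 ratio was 1.47 in cow S1, 0.48 in S2, 0.41 in S3, 2.02 in S4 and 0.78 in S5, against -3.73 to -3.32 in the cyclic cows. It rose by 4.49 (SE 0.21, adjusted p = 6.51e-12), 22.5-fold, and it was called under all 36 settings of the analysis. The intercaruncular values of the 5 cows were -1.37, -1.79, -1.30, -0.10 and -1.64 and those of the cyclic cows -3.87 to -3.22, and the rise was 2.17 (SE 0.30, adjusted p = 6.68e-05), 4.51-fold.

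**Figure D1:**
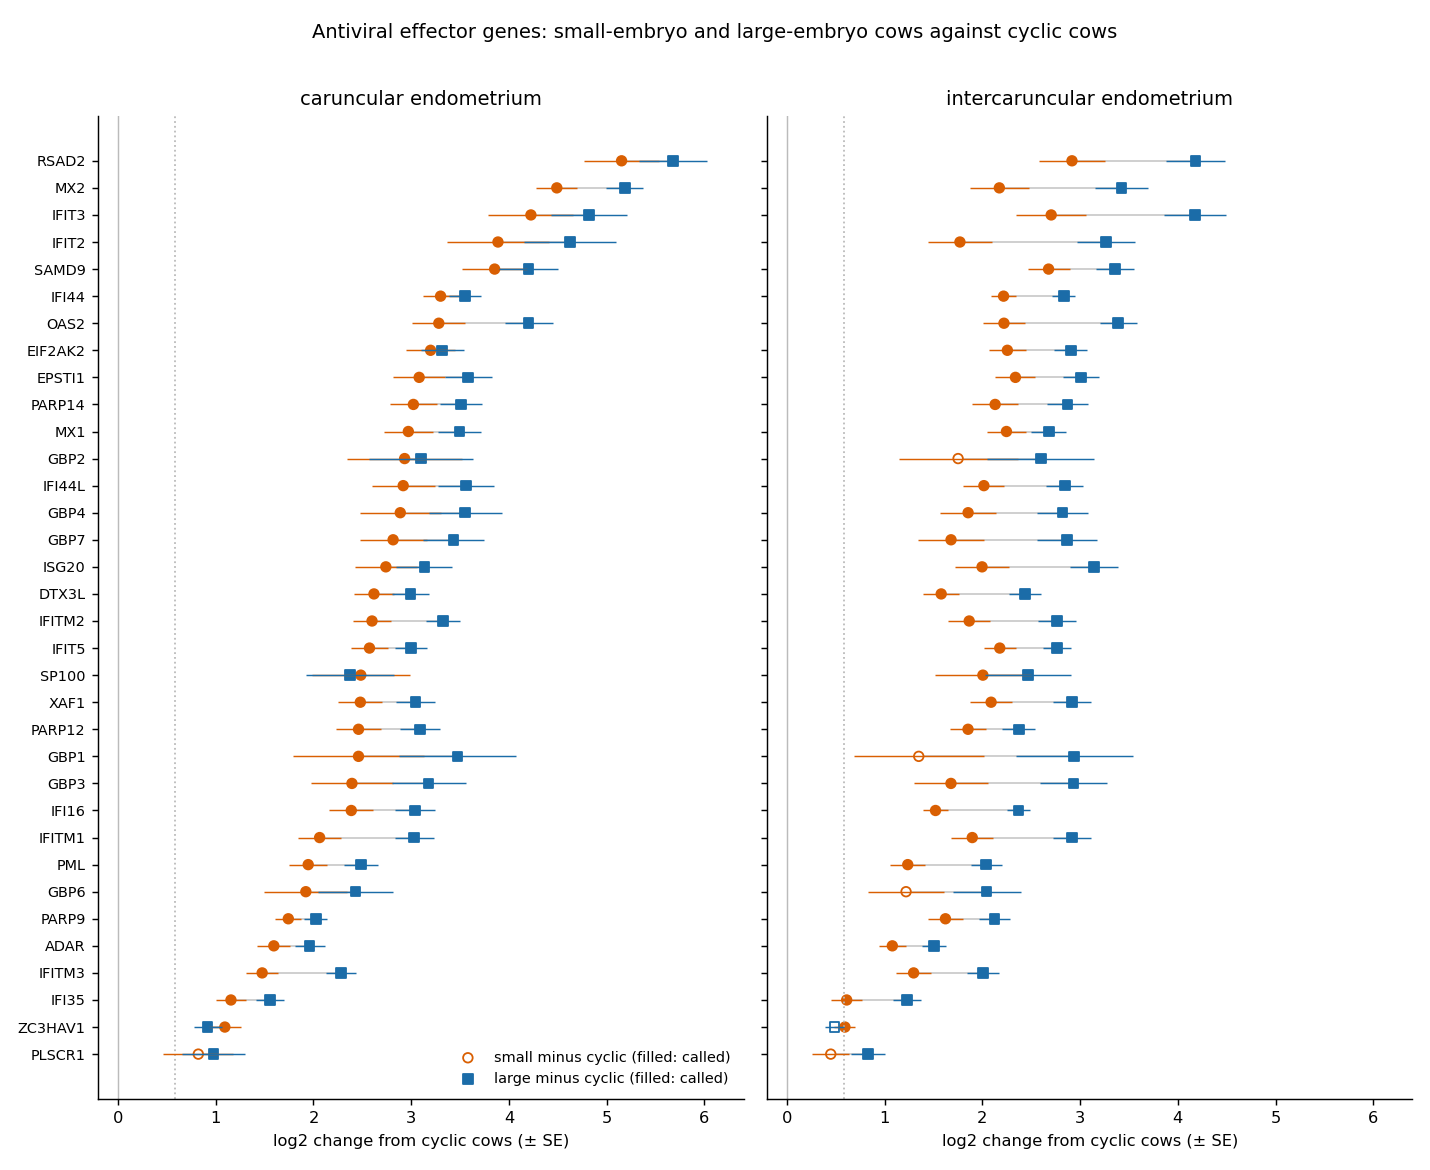
Change in each of the 34 antiviral effectors in small-embryo (orange) and large-embryo (blue) cows relative to the cyclic cows, in log2 units with the standard error, for both tissues; filled points passed the threshold. Small-embryo values reach 5.15 for RSAD2 in the caruncular endometrium, and in the intercaruncular endometrium they lie to the left of the large-embryo values for every gene but ZC3HAV1.

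Other effectors rose beside them. IFIT3, which binds viral RNA with the other IFIT proteins, rose by 4.22 and 2.70 in the caruncular and intercaruncular endometrium, and IFI44 by 3.30 and 2.22. OAS2, whose product makes the oligoadenylates that start RNA decay, rose by 3.28 and 2.22, SAMD9 by 3.85 and 2.68, and EIF2AK2, the kinase that halts translation, by 3.20 and 2.26. MX1 rose by 2.97 and 2.25. The smallest caruncular rise was that of ZC3HAV1, at 1.09 (adjusted p = 0.000125).

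The antiviral genes that did not pass the test were few. PLSCR1, a membrane scramblase, was 0.82 higher in the caruncular (adjusted p = 0.174, limma) and 0.45 higher in the intercaruncular endometrium (adjusted p = 0.237). The guanylate binding proteins GBP1, GBP2 and GBP6 rose in the caruncular endometrium. They were not called in the intercaruncular endometrium, where their differences were 1.35, 1.75 and 1.22 (adjusted p = 0.316, 0.138 and 0.104). No tissue difference was called for them, with or without the cow as a block. For GBP1 the intercaruncular log2 ratio was 2.32 in cow S4 and between -2.52 and -1.19 in the other 4 small-embryo cows, against -3.60 to -0.63 in the cyclic cows. The IFIT2 probe was well above background on only 5 of 13 caruncular and 4 of 10 intercaruncular arrays of cyclic cows, so its rises of 3.89 and 1.77 rest on dim values in that group.

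The cows differed in how far the antiviral programme had risen. Relative to the cyclic mean, the mean of the 34 genes in the caruncular endometrium was 3.63 in cow S1, 3.52 in S4, 2.49 in S5, 1.88 in S2 and 1.87 in S3, while the cyclic cows lay between -0.39 and 0.30. Cows S2 and S3, the Sub-fertile pair, were the lowest there. The intercaruncular means were 1.73, 2.87, 1.42, 1.38 and 1.58 in the same order of cows, so that S3 was above S5, and the cyclic cows lay between -0.23 and 0.25. The order of the cows thus changed between the tissues, and with 2 Sub-fertile cows no test between the fertility labels was made.

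**Figure D2:**
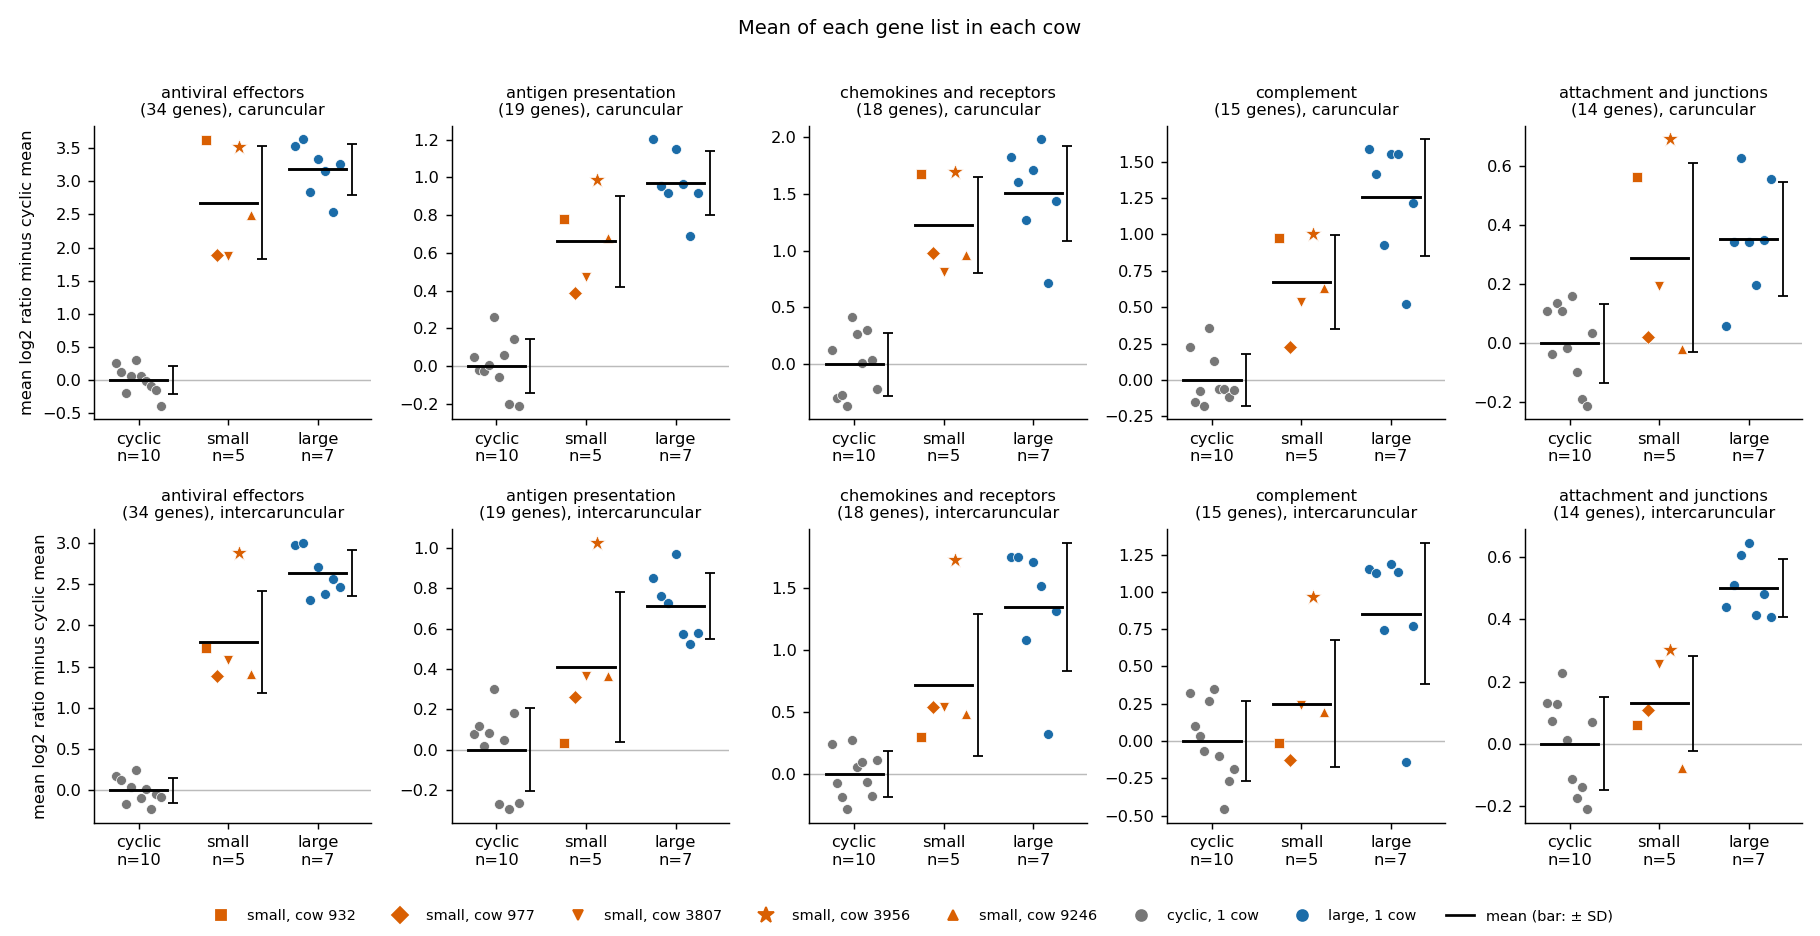
Mean log2 ratio of 5 gene lists in each cow, relative to the mean of the cyclic cows, for small-embryo, large-embryo and cyclic cows in both tissues; horizontal bars are group means and vertical bars the SD. Every small-embryo cow lies above the cyclic cows for antiviral effectors, and small-embryo and cyclic cows overlap for attachment genes. The large-embryo cows lie above both for attachment genes in the intercaruncular endometrium.

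The machinery that couples ISG15, a ubiquitin-like protein, to other proteins rose as a whole, in 6 of 6 genes in both tissues. The medians were 2.71 and 1.81, and 3.34% and 1.14% of all probes rose. ISG15 itself (chromosome 16, 51464069 to 51465096) had caruncular log2 ratios of 1.5, -0.90, -0.95, 0.33 and -0.15 in cows S1 to S5, against -3.51 to -1.95 in the cyclic cows, a rise of 2.81 (SE 0.32, adjusted p = 3.49e-06). Its intercaruncular rise was 1.90 (SE 0.29, adjusted p = 0.000246). The activating enzyme UBA7 rose by 2.21 and 1.80, the conjugating enzyme UBE2L6 by 1.42 and 1.00, and the ligase HERC5 by 2.61 and 1.82. USP18 (chromosome 5, 76001952 to 76018301), the protease that removes ISG15 and damps the receptor, was 0.24, -0.97, -0.50, 0.97 and -0.46 in the intercaruncular endometrium and -3.78 to -3.06 in cyclic cows. Its rises of 4.13 and 3.17 (adjusted p = 7.76e-08 and 9.76e-09) were among the largest of all genes, and the intercaruncular one was called under all 36 settings.

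The cytoplasmic RNA sensors rose in both tissues. DDX58, which encodes RIG-I, rose by 3.63 and 2.78, IFIH1, which encodes MDA5, by 3.14 and 2.00, their regulator DHX58 by 1.71 and 1.26, and the Z-form nucleic acid sensor ZBP1 by 3.33 and 1.87. The endosomal receptors TLR3 and TLR7 rose in the caruncular endometrium, by 0.74 and 0.91, and were 0.38 and 0.40 higher in the intercaruncular endometrium without passing the test (adjusted p = 0.159 and 0.154, limma). STING1, MYD88 and CASP1 did not pass in either tissue, with caruncular differences of 0.26, 0.29 and 0.54. In all, 6 of 9 sensors rose in the caruncular and 4 of 9 in the intercaruncular endometrium, against 3.34% and 1.14% of all probes.

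Of the interferon signalling chain, the downstream factor IRF9 rose and no rise was called for the receptor chains or JAK1. IRF9, the DNA-binding part of the transcription complex that type I interferons activate, was 1.24, -0.09, 0.30, 0.92 and 0.62 in the caruncular endometrium of cows S1 to S5, against -1.94 to -1.39 in the cyclic cows, a rise of 2.24 (SE 0.18, adjusted p = 2.43e-08, limma). The intercaruncular values of 0.64, 0.11, 0.40, 0.92 and 0.09 lay above the cyclic range of -2.02 to -1.08, a rise of 1.76 (SE 0.15, adjusted p = 4.97e-08). IFNAR1 and IFNAR2 differed by -0.23 and 0.01 in the caruncular and by -0.36 and -0.29 in the intercaruncular endometrium, JAK1 by -0.03 and 0.01, and STAT3 by 0.09 and -0.002, none of them called.

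Other interferon regulatory factors rose in the caruncular endometrium. IRF1 rose by 1.12, IRF3 by 0.98, IRF5 by 0.75 and IRF8, a factor of myeloid cells, by 1.13. NMI, which binds STAT proteins, rose by 1.30 and 0.79. Of the 17 measured genes of this list 9 rose in the caruncular endometrium (median 0.94) and 4, IRF9, USP18 and NMI among them, in the intercaruncular endometrium (median 0.30). Risen probes made up 3.34% and 1.14% of all those tested. The feedback inhibitor SOCS1 was 1.16 higher in the caruncular endometrium (adjusted p = 0.0616, limma), which did not pass.

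Genes of antigen processing and presentation had smaller changes. In the caruncular endometrium 9 of 19 rose (median 0.55) and in the intercaruncular endometrium 2 of 19 (median 0.48), against 3.34% and 1.14% of all probes. TAP1, the peptide transporter, rose by 1.49 and 1.02 (adjusted p = 0.0012 and 0.034, limma), and NLRC5, the regulator of class I genes, by 1.53 and 0.99 (adjusted p = 0.000263 and 0.0428). The intercaruncular calls of TAP1 and NLRC5 held under 26 and 16 of the 36 settings. B2M, the light chain of class I molecules, rose by 0.92 in the caruncular endometrium and was 0.63 higher in the intercaruncular endometrium (adjusted p = 0.0718). The immunoproteasome genes PSMB8, PSMB9 and PSME2 rose by 0.80, 0.95 and 0.70 in the caruncular endometrium, and the class II genes BOLA-DRA and BOLA-DMB by 0.60 and 1.02. BOLA-NC1, a non-classical class I gene, ranged from -2.60 to 2.33 among the small-embryo cows and did not differ between the groups in mean (-0.11, adjusted p = 0.958). Probes to this polymorphic family may cross-hybridise.

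Of 18 chemokine and chemokine receptor genes 9 rose in the caruncular and 2 in the intercaruncular endometrium (medians 1.06 and 0.60). The shares of all probes that rose were 3.34% and 1.14%. CXCL10 (chromosome 6, 90881993 to 90884345), which draws T and NK cells, had caruncular log2 ratios of 3.46 in cow S1, 1.84 in S4, -0.39 in S5, -0.94 in S2 and -1.98 in S3, against -2.94 to -1.85 in the cyclic cows. Only cow S3 fell within the cyclic range, and the rise was 2.89 (SE 0.64, adjusted p = 0.0082, limma). Intercaruncular CXCL10 was 1.00 in cow S4 and between -2.60 and -2.09 in the other 4 cows, with the cyclic cows between -3.23 and -2.53. That difference, 1.14 with a 95% interval from 0.18 to 2.10, did not pass (adjusted p = 0.21). CXCL9 and CXCL11, ligands of the same receptor, rose by 1.98 and 2.51 in the caruncular endometrium and were 1.09 and 1.10 higher in the intercaruncular endometrium. The caruncular call of CXCL9 held under 13 of 36 settings, and its change was -0.14 with a fixed slide block.

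CCL8 (chromosome 19, 15807708 to 15809743), a monocyte attractant, rose in both. Its caruncular log2 ratio was 2.64, -0.87, -0.96, 0.72 and -0.09 in cows S1 to S5 and -4.24 to -2.43 in the cyclic cows, a rise of 3.66 (SE 0.44, adjusted p = 8.49e-06, limma). The intercaruncular values were -1.32, -1.37, -1.40, 1.00 and -1.31 against -3.92 to -2.77, a rise of 2.53 (SE 0.32, adjusted p = 2.62e-05) in which 4 of the cows were close together and S4 stood apart. CCL11, an eosinophil attractant, rose by 2.36 and 2.25 (adjusted p = 0.0362 and 0.036), but its probe was above background on 3 of 13 and 2 of 10 cyclic arrays, and the calls held under 19 and 23 of 35 settings. The chemokine receptor CXCR4 rose by 0.72 in the caruncular endometrium, where all 5 cows lay above the cyclic range. With the slide as a random block 2 and 1 of the 18 chemokine genes were called.

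Among the cytokines, 6 of 13 rose in the caruncular and 2 in the intercaruncular endometrium (medians 0.82 and 0.42), against 3.34% and 1.14% of all probes. TNFSF13B, a survival factor of B cells, rose by 2.74 and 1.81 (adjusted p = 0.000403 and 0.0172, limma). TNFSF10, which encodes the death ligand TRAIL, rose by 1.93 in the caruncular endometrium (adjusted p = 0.000305). Its intercaruncular log2 ratio was 0.45, -0.94, 0.52, -1.68 and -0.32 in cows S1 to S5 against -2.88 to -0.79, a difference of 1.00 (adjusted p = 0.0958). IL27 rose by 1.65, IL7 by 1.30, IL15 by 0.82 and IL18 by 0.80 in the caruncular endometrium. These 4 did not pass in the intercaruncular endometrium, and no tissue difference was called for them in the unpaired fit. With the cow as a random block the tissue difference of IL27 was called (-1.06, adjusted p = 0.0463, limma). That of TNFSF10 was called with the cow as a fixed block (-0.93, adjusted p = 0.0348, limma). LIFR, the receptor of leukaemia inhibitory factor, rose by 0.64 in the intercaruncular endometrium. The inflammatory cytokines IL1B and IL6 and the regulatory IL10 were not called in either tissue.

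Genes linked to tolerance and tryptophan breakdown rose in 7 of 11 cases in the caruncular and in 2 in the intercaruncular endometrium. Over all probes the risen shares were 3.34% and 1.14%. IDO1 (chromosome 27, 35027443 to 35040352), the enzyme that starts tryptophan catabolism, was 1.63 in cow S1, 1.55 in S4, -0.83 in S2, -1.12 in S5 and -2.57 in S3 in the caruncular endometrium, against -3.72 to -1.81 in cyclic cows. The rise was 2.80 (SE 0.58, adjusted p = 0.00454, limma). On the intercaruncular side cow S4 had 1.33 and the other 4 cows -2.29 to -1.69, with the cyclic cows from -3.32 to -2.22, and the difference of 1.53 did not pass (adjusted p = 0.13). LGALS9, a galectin that binds T cell receptors, rose by 1.79 and 1.28, and LGALS3BP by 0.96 and 0.65, the latter under all 36 settings in the intercaruncular endometrium. WARS1, the tryptophanyl-tRNA synthetase, rose by 1.65 in the caruncular endometrium.

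**Figure D3:**
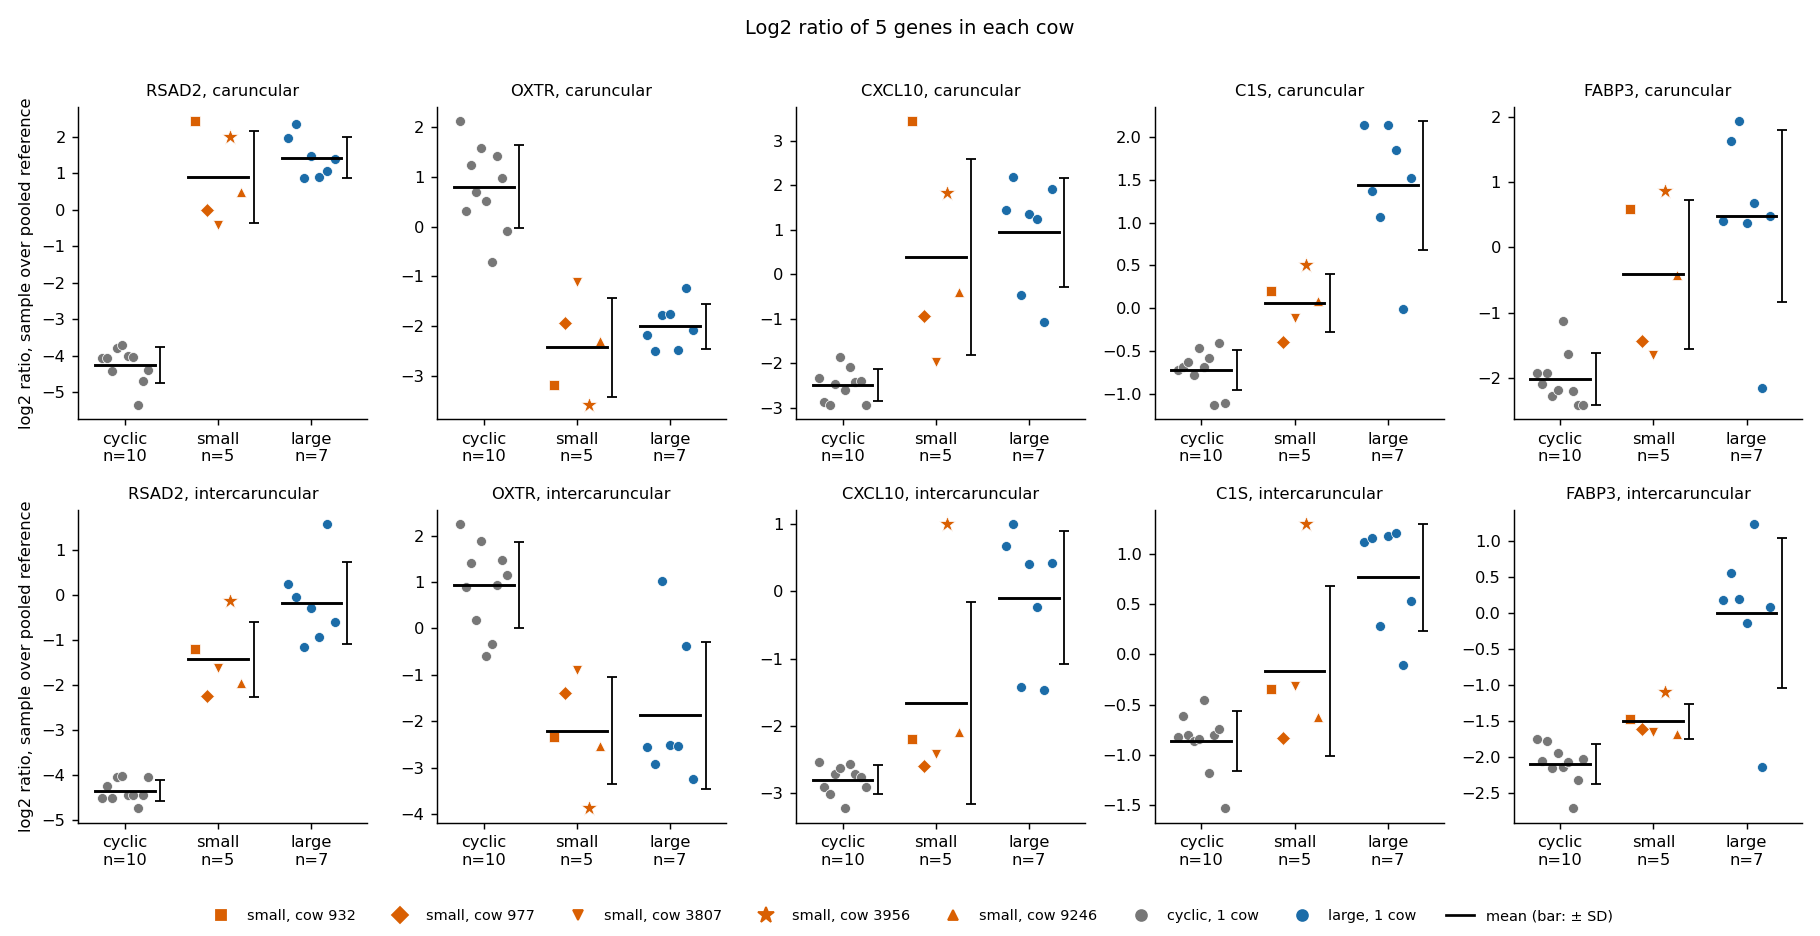
Log2 ratio over the pooled reference of RSAD2, OXTR, CXCL10, C1S and FABP3 in every cow, by group and tissue, with the group mean and SD; marker shapes name the small-embryo cows by their number in the labels. RSAD2 and OXTR separate small-embryo from cyclic cows in both tissues, while in the intercaruncular endometrium CXCL10 is high in 1 small-embryo cow, at 1.00, and C1S overlaps the cyclic range.

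Complement, the cascade of plasma proteins that tags and lyses cells, had calls in the caruncular endometrium and none in the intercaruncular endometrium. Of 15 measured genes 5 rose in the caruncular endometrium (median 0.72; 10 had an unadjusted p under 0.05) and 0 in the intercaruncular endometrium (limma; median 0.16), where 4 had an unadjusted p under 0.05. Over all probes 3.34% and 1.14% rose, so 0 of 15 in the intercaruncular endometrium is not unusual. The caruncular rises were C1QA (0.62), C1QB (1.16), C1QC (0.72), C2 (1.16) and the anaphylatoxin receptor C3AR1 (0.72). C1QC was at -0.000789 with a fixed slide block, and 1 of the 5 was called with the slide as a random block. C1QB (chromosome 2, 130166515 to 130173256) was 0.17, -0.40, -0.69, -0.41 and -0.09 in cows S1 to S5 against -1.97 to -0.98 in the cyclic cows (SE 0.19, adjusted p = 0.000551). C1S (chromosome 5, 103407687 to 103418871), the protease of the first component, was 0.21, -0.39, -0.11, 0.51 and 0.09 in the same cows against -1.13 to -0.41. All 5 cows lay above the cyclic range, yet the difference of 0.78 did not pass (95% interval 0.26 to 1.30, adjusted p = 0.0621). Intercaruncular C1S was 1.29 in cow S4 and -0.84 to -0.32 in the others, within the cyclic range of -1.53 to -0.45 for 2 of the 5 cows (0.70, adjusted p = 0.196). C3, the central component, differed by 0.58 and 0.14 (adjusted p = 0.246 and 0.863).

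Of the secreted antimicrobial proteins the 2 lipopolysaccharide binding relatives, neighbours on chromosome 13, stood out. LBP (67214930 to 67247274) was 1.44, -0.70, -1.44, 0.89 and -0.61 in the caruncular endometrium of cows S1 to S5 and -4.32 to -3.26 in the cyclic cows, a rise of 3.96 (SE 0.38, adjusted p = 2.61e-07, limma). Its intercaruncular values were -1.60, -1.68, -1.22, 0.35 and -1.79 against -3.97 to -3.49, a rise of 2.53 (SE 0.32, adjusted p = 2.62e-05). These values are of the brighter LBP probe. The other LBP probe that passed the filter had a change of opposite sign in both tissues. BPI (67153977 to 67201888), the bactericidal relative, rose by 1.91 in the caruncular endometrium (SE 0.40, adjusted p = 0.00445). The intercaruncular BPI values of -1.29, -1.39, -1.46, -0.50 and -1.73 against -2.97 to -1.70 gave a difference of 1.01 that did not pass (adjusted p = 0.153). Lysozyme, LTF, LCN2, PTX3 and S100A12 were not called in either tissue.

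The oxytocin receptor gene was low in every small-embryo cow. OXTR (chromosome 22, 17776079 to 17832707) was -3.19 in cow S1, -1.93 in S2, -1.11 in S3, -3.59 in S4 and -2.30 in S5 in the caruncular endometrium, against -0.71 to 2.13 in the cyclic cows with a median of 0.83. It fell by 3.23 on the log2 scale (SE 0.40, adjusted p = 1.38e-05, limma), 9.39-fold. The intercaruncular values of -2.33, -1.40, -0.89, -3.88 and -2.53 lay below the cyclic range of -0.59 to 2.25, and the fall was 8.79-fold (adjusted p = 0.00567). The large-embryo cows were 2.81 below the cyclic cows in both tissues, and large minus small was 0.42 (adjusted p = 0.962) and 0.33 (adjusted p = 0.844). The intercaruncular call was lost under Welch's test, under both slide blocks and without cow S4 and the 3 large-embryo cows of its slide, with the change between -3.47 and -0.58 over the settings.

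The rest of the prostaglandin pathway and the steroid receptors gave no call. PTGS2, the cyclooxygenase of prostaglandin synthesis, differed by 0.04 (95% interval -0.67 to 0.76) in the caruncular and by -0.44 (-1.37 to 0.49) in the intercaruncular endometrium, and PTGES by -0.30 and -0.81. Of 13 luteolysis and prostaglandin genes OXTR was the 1 called. ESR1, the oestrogen receptor, was 0.62, 1.23, 0.83, 0.04 and 0.74 in cows S1 to S5 and 0.59 to 2.06 in the cyclic cows in the caruncular endometrium, a difference of -0.58 (95% interval -1.10 to -0.07, adjusted p = 0.162, limma). PGR, the progesterone receptor, differed by -0.34 (-0.79 to 0.11) and -0.38 (-0.78 to 0.02). None of the 9 steroid receptors and regulators was called in either tissue by limma. An unadjusted p under 0.05 was found for 2 in the caruncular and 1 in the intercaruncular endometrium, against 3365 of 14717 and 2444 of 14715 probes. With 4.2% and 1.57% of all probes called, 0 calls among 9 genes is not unusual.

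Nutrient transporters gave 2 calls among 15 genes in each tissue, against 4.2% and 1.57% of all probes. The medians were 0.45 and -0.01, and 9 caruncular and 3 intercaruncular genes had an unadjusted p under 0.05 (limma). Of those called, SLC6A6, the taurine transporter, and SLC15A3, a lysosomal peptide transporter, rose in the caruncular endometrium, by 0.96 and 1.71. In the intercaruncular endometrium SLC15A3 rose by 0.99 and the glucose transporter SLC2A3 fell by 0.82. SLC2A1 (chromosome 3, 103309108 to 103337308), the main glucose transporter of the uterine epithelium, was -0.53, -0.32, -0.84, -0.39 and -0.70 in the intercaruncular endometrium of cows S1 to S5, all within the cyclic range of -1.76 to 0.09. Its difference was 0.62 (95% interval 0.10 to 1.14, adjusted p = 0.207, limma), and in the caruncular endometrium 0.88 (adjusted p = 0.123). SLC16A1, a lactate and pyruvate carrier, differed by -0.03 in the intercaruncular endometrium (-0.59 to 0.52).

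Histotroph genes gave 6 rises among 19 in the caruncular endometrium and 0 in the intercaruncular endometrium (limma; 4 had an unadjusted p under 0.05), with medians of 0.51 and 0.09. The shares of all probes that rose were 3.34% and 1.14%. FABP3 (chromosome 2, 122287099 to 122294639), a fatty acid binding protein, was 0.60 in cow S1, 0.86 in S4, -0.42 in S5, -1.44 in S2 and -1.65 in S3 in the caruncular endometrium, against -2.42 to -1.13 in the cyclic cows. The rise of 1.62 only just passed (SE 0.49, adjusted p = 0.0495) and was called under 13 of 36 settings. Its intercaruncular values, -1.48, -1.61, -1.65, -1.09 and -1.68, were all above the cyclic range of -2.71 to -1.75, but the difference of 0.59 (95% interval -0.07 to 1.26) did not pass (adjusted p = 0.368). PLIN2, which coats lipid droplets, rose by 0.87, and the cathepsins CTSB, CTSC and CTSS by 0.64, 0.71 and 0.67, in the caruncular endometrium. CTSC was at -0.039 with a fixed slide block, and its other tested probe had a change of opposite sign in both tissues.

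No gene of attachment or cell junctions was called among 14 in either tissue (limma), with medians of 0.16 and 0.01. An unadjusted p under 0.05 was found for 4 in the caruncular and 3 in the intercaruncular endometrium. Over all probes it was found for 3365 of 14717 and 2444 of 14715. At the shares called over all probes, 4.2% and 1.57%, 0 calls among 14 genes is not unusual. SPP1 (chromosome 6, 36693204 to 36700208), which encodes osteopontin, a ligand that bridges integrins of the uterus and the conceptus, varied widely. Its caruncular log2 ratio was 0.75, 1.29, 1.66 and 0.66 in cows S1, S2, S3 and S4 but -3.11 in S5, and the cyclic cows ranged from -3.58 to 0.86. The difference of 1.80 had a 95% interval from -0.16 to 3.75 (adjusted p = 0.257). Among intercaruncular values cows S3 (-0.16) and S4 (-0.98) were above the cyclic range of -4.56 to -2.30, and S1, S2 and S5 were within it (1.18, adjusted p = 0.294). The integrin subunits ITGAV and ITGB3 differed by -0.03 and -0.01 in the intercaruncular endometrium, with intervals of -0.29 to 0.24 and -0.44 to 0.42.

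In the caruncular endometrium 2 of 18 activin, TGF-beta and BMP genes and 2 of 9 WNT genes were called, against 4.2% of all probes. The intercaruncular counts were 1 of 18 and 0 of 9, against 1.57%. FST, which binds and blocks activin, rose by 1.55 in the caruncular endometrium (adjusted p = 0.0113, limma) and was 0.96 higher in the intercaruncular endometrium (adjusted p = 0.225). TGFB2 fell by 0.72 in the caruncular and NOG, an inhibitor of bone morphogenetic proteins, fell by 0.94 in the intercaruncular endometrium, among 18 genes of the activin, TGF-beta and BMP list. INHBA, the activin A subunit, differed by -0.46 and -0.45 without a call. DKK1 (chromosome 26, 6846855 to 6849305), a secreted WNT inhibitor, was 1.89, 0.32, -0.74, 1.44 and 1.21 in the caruncular endometrium of cows S1 to S5 against -4.71 to 0.65, a rise of 2.25 (SE 0.65, adjusted p = 0.0381) called under 24 of 36 settings. WNT6 fell by 1.03 there (adjusted p = 0.0228).

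Among all probes, the 10 largest rises in each tissue in which every small-embryo cow lay above every cyclic cow included RSAD2, USP18 and IFIT3 in both tissues. The largest in both tissues was an unidentified transcript on chromosome 11 (probe A_73_112930), at 5.49 in the caruncular and 3.85 in the intercaruncular endometrium, or 45.0-fold and 14.4-fold. A predicted gene similar to IFIT1 (LOC508267) rose by 4.85 and 2.85, and a predicted gene similar to DAMP-1 (LOC507402) by 3.94 and 3.05. A second unidentified transcript on chromosome 12 (probe A_73_120437) rose by 4.11 and 2.87, its probe being above background on 2 of 13 caruncular arrays of cyclic cows. Another, with no position in the annotation (probe A_73_116721), rose by 4.06 and 3.48.

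The falls were smaller. After OXTR the largest was an unidentified transcript on chromosome 22 (probe A_73_110903), at -2.95 in the caruncular endometrium (SE 0.44, adjusted p = 0.000161, limma). KREMEN1, a receptor of DKK proteins, fell by 1.43, the kinase PAK6 by 1.35, CD93 (chromosome 13, 41878374 to 41881424), a protein of endothelium and myeloid cells, by 1.10, and the membrane-binding protein ANXA2 by 0.96. In the intercaruncular endometrium NDUFA4L2, a mitochondrial protein induced under low oxygen, fell by 1.18 (adjusted p = 3.71e-05), the retinol dehydrogenase DHRS4 by 1.12, WFDC1 by 1.06 and CD93 by 0.95 (adjusted p = 0.0004). DHRS4 was 0.47 lower in large-embryo than in cyclic cows (adjusted p = 0.154), and large minus small was not called for it.

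Values of the large-embryo cows put these changes in scale. Both comparisons use the same cyclic cows, so their changes are given side by side and the difference by size was tested directly. Large-embryo cows had 1849 caruncular calls (12.6%; 6.41% rose and 6.16% fell) and 1743 intercaruncular calls (11.8%; 6.25% rose and 5.6% fell) against cyclic cows. These counts rest on 7 cows and those of the small-embryo group on 5, so they were not made at equal precision. The median half-width of the 95% interval was 0.274 and 0.276 for large and 0.305 and 0.307 for small embryos, each against cyclic cows. Large minus small gave 0 calls in the caruncular endometrium (limma, adjusted p under 0.05; 980 probes had an unadjusted p under 0.05) and 518 of 14717 (3.52%) in the intercaruncular endometrium, 253 higher (1.72%) and 265 lower (1.8%) with a large embryo. Over the mean of both tissues 23 probes (0.156%) differed, 11 higher (0.0747%) and 12 lower (0.0815%). On that mean 487 probes (3.31%; 2.51% rose and 0.795% fell) were called with a small embryo and 1751 (11.9%; 6.36% rose and 5.54% fell) with a large one, each against cyclic cows. The median half-width of the 95% interval of large minus small was 0.326 and 0.328 on the log2 scale, or 1.25-fold in the caruncular endometrium, before any adjustment for the number of probes.

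**Figure D4:**
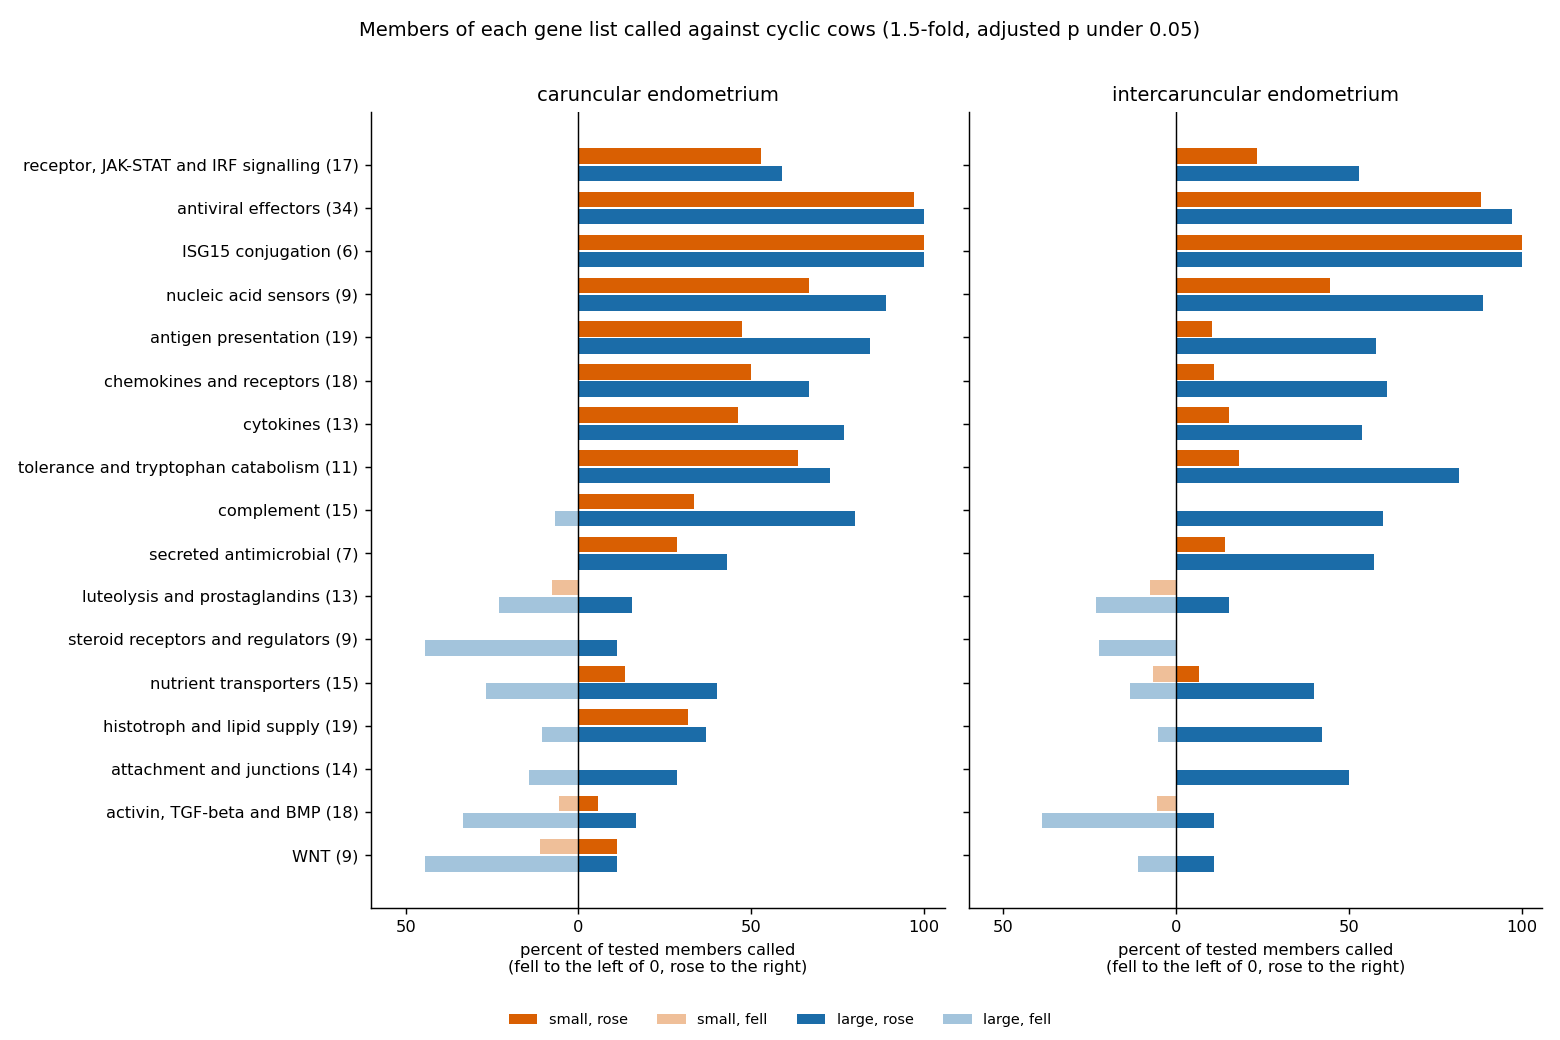
Percent of the tested genes of each of 17 lists that rose (right) or fell (left) relative to cyclic cows, for small-embryo (orange, 5 cows) and large-embryo (blue, 7 cows) groups in both tissues. For antiviral effectors and ISG15 conjugation both bars are near the end of the axis, and for complement, attachment, transporters and histotroph the large-embryo bars are longer, with 0 small-embryo calls for attachment.

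The absence of caruncular calls by size does not show that the groups were alike. Median caruncular changes for small and large embryos were 2.61 and 3.16 for antiviral effectors, 2.71 and 3.17 for ISG15 conjugation, 1.06 and 1.02 for chemokines and 0.94 and 0.94 for receptor, JAK-STAT and IRF signalling. For complement they were 0.72 and 1.39, with 5 and 12 genes risen. The 10 probes with the lowest p for large minus small had adjusted p from 0.281 to 0.329 and so were not called. They included C1QB (large minus small 1.07), C1S (1.37), the ribonuclease RNASE6 (1.02), IFITM3 (0.81), IFITM5 (0.68) and the sodium pump subunit ATP1B2 (-1.03). C1S was -0.01 to 2.13 in large-embryo cows, with a median of 1.52.

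In the intercaruncular endometrium the median of large minus small over the 34 antiviral genes was 0.83. Of these genes 15 were called higher with a large embryo, against 1.72% of all probes. Examples were MX2 (1.25, adjusted p = 0.0336, limma), IFIT3 (1.47, adjusted p = 0.0342), OAS2 (1.17, adjusted p = 0.0115) and IFI16, a DNA sensor (0.85, adjusted p = 0.00574). RSAD2 missed the threshold (1.26, adjusted p = 0.0542), as did ISG15 (1.00, adjusted p = 0.0716). The size comparison of MX2 was called under 28 of 37 settings. It was lost with a fixed slide block, under Welch's test, in a fit of the 2 groups alone, and on leaving out any of the small-embryo cows S1, S2, S3 and S5 or the large-embryo cows Pregnant_1943 and Pregnant_3805. ZBP1 (1.14), TNFSF10 (1.27), CCL11 (2.47), LBP (1.90), BPI (1.92) and C3AR1 (0.70) were higher with a large embryo too.

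Responses of the intercaruncular endometrium that were present with a large embryo and not called with a small one, with a called difference by size, were counted for 252 probes (1.71%), 121 higher (0.822%) and 131 lower (0.89%) with a large embryo. In the caruncular endometrium there were 0, the size comparison giving no call there. C3AR1 was a clear case. Its log2 ratio was -0.39, -0.52, -0.16, -0.18 and -0.43 in cows S1 to S5, with the cyclic cows between -0.65 and -0.22 and the large-embryo cows between -0.04 and 0.77. Small minus cyclic was 0.07 (95% interval -0.16 to 0.30), large minus cyclic 0.77 and large minus small 0.70 (adjusted p = 0.00574, limma), the last called under all 37 settings.

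Others among the 252 were genes of lipid, glucose and lactate supply and of attachment. FABP3 was 2.08 above the cyclic cows with a large embryo and 0.59 with a small one (large minus small 1.49, adjusted p = 0.024, limma), SLC16A1 1.15 and -0.03 (1.19, adjusted p = 0.028), SLC2A1 1.77 and 0.62 (1.15, adjusted p = 0.024) and SLC6A6 1.00 and 0.24 (0.76, adjusted p = 0.0324). ITGB3 was 0.79 and -0.01 (0.80, adjusted p = 0.0483). ESR1 was -1.18 and -0.42 (-0.75, adjusted p = 0.0492). For SPP1, large minus small was 0.82 with a 95% interval from -0.42 to 2.07, so that a difference by size was not shown.

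The largest responses of this kind outside the lists were of mixed function. A predicted gene (LOC515676) was 3.48 above cyclic with a large and 0.55 with a small embryo, being 2.11 in cow S4 and -2.48 to -1.73 in the other 4 small-embryo cows. TIMD4, a phosphatidylserine receptor of macrophages, was 2.47 and 1.07, the glycosyltransferase MGAT4A 2.39 and 0.85, the neurofilament NEFH 2.00 and 0.37, peroxidasin (PXDN) 1.94 and 0.24, and RNASE6 1.94 and 0.81. ISLR2 was the largest fall, at -2.06 and -0.65 (large minus small -1.41, adjusted p = 0.00574, limma).

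The size comparison of the antiviral genes was uneven between slides. On the intercaruncular slide that held cow S4 with 3 large-embryo cows, the median of large minus small over the 34 antiviral genes was -0.05 and 14 were above 0. On the slide that held cows S1, S2 and S5 with 1 large-embryo cow it was 1.23, with 34 of 34 above 0, and on the slide of cow S3 with 2 large-embryo cows it was 0.73, with 32 of 34. The caruncular medians were -0.05, 0.67 and 1.06 for the same slides. Other lists varied in this. In the same order the intercaruncular medians were 0.45, 0.58 and 0.57 for histotroph genes and 0.36, 0.39 and 0.85 for nutrient transporters. They were -0.26, 0.61 and 0.22 for antigen presentation and -0.07, 0.40 and 0.40 for attachment genes. The medians for the slide of 3 small-embryo cows average them: in the caruncular endometrium cow S1 had a mean of 3.63 for the antiviral effectors over the cyclic mean, above the 3.33 of Pregnant_3805 beside it, and cows S2 (1.88) and S5 (2.49) were below it. These are differences between 1 to 3 cows a side, with no test, and the part of the slide in them was not tested. The count of 518 was 1169 with a fixed slide block, 137 without cow S4 and the 3 large-embryo cows of its slide, 78 without cow S1, 93 without S5, 121 without S3, 683 without S4 and 1253 without the large-embryo cow Pregnant_9790.

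The change with a small embryo was compared between the tissues. The test of the tissue difference called 2 of 14715 probes (0.0136%), MX2 (-2.32, adjusted p = 0.00347, limma) and an unidentified transcript on chromosome 24 (probe A_73_106620; -1.08, adjusted p = 0.0338). Pairing the tissues of an animal, a fixed block for the cow gave 18 calls and a random block 27, 8 and 9 of them among the 65 genes of the receptor, antiviral, ISG15 and sensor lists, RSAD2, ZBP1, IFI44, OAS2 and HERC6 in both and SAMD9 with the fixed block only. Of the 65 genes 63 changed less in the intercaruncular endometrium, by a median of -0.61 against 0.03 over all probes. Except for cow Non-Pregnant_9786, the first arrays of small-embryo and cyclic cows were scanned on a different day for each tissue. Tissue and scan day can thus hardly be told apart. The median signal over local background was 21.9 in both caruncular groups and 14.7 and 11.7 in the intercaruncular ones, and its part in this difference was not tested. Without cow S1 the median over the 65 genes was -0.37 and the unpaired fit called no probe. The paired fits were not run without that cow.

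Cell type markers moved with some of these lists. Of the macrophage and monocyte markers 3 of 7 rose in the caruncular endometrium, AIF1 by 1.09, MSR1 by 1.19 and MPEG1 by 1.06, while CD14 differed by 0.08. The mean of the 7 relative to the cyclic mean was 0.18 to 1.09 in the small-embryo and -0.52 to 0.41 in the cyclic cows. None of the 7 was called in the intercaruncular endometrium (limma; 4 had an unadjusted p under 0.05), with means of 0.05 to 0.89 and -0.44 to 0.32. The pan-leukocyte gene CD53 rose by 1.48 and 0.79, and the other 4 pan-leukocyte genes, PTPRC among them (0.46 and 0.11), were not called. Of 6 NK and cytotoxic genes KLRB1 (0.82) and PRF1 (0.69) rose in the caruncular and 0 in the intercaruncular endometrium (limma; 1 had an unadjusted p under 0.05). None of 5 T cell or 3 B cell genes was called in either tissue (1 caruncular T cell gene had an unadjusted p under 0.05). With 4.2% and 1.57% of all probes called, 0 calls in lists this short is not unusual. The part of these cells in the rises of C1QB, CCL8 or IRF8 was not tested.

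Smooth muscle markers had median differences of -0.84 and -0.78 over 6 genes with 0 calls (limma; 4 caruncular and 4 intercaruncular genes were under 0.05 before adjustment), and the cow means of -1.15 to -0.35 and -1.07 to -0.13 overlapped the cyclic means of -0.98 to 0.64 and -1.27 to 0.80. In large-embryo cows 5 of the 6 fell in each tissue. On the shared slide cow S3 was below cow Non-Pregnant_3972 in 6 of 6 muscle genes in both tissues, by medians of -1.51 and -2.0. Endothelial markers held 1 fall of 6 in each tissue, TIE1 by 0.67 in the caruncular and PECAM1 (chromosome 19, 48525295 to 48619385) by 0.97 in the intercaruncular endometrium, where its values of -0.27, -0.24, -0.23, -0.82 and -0.27 lay below the cyclic range of -0.02 to 1.27. None of the 5 epithelial, 7 stromal or 4 ciliated cell markers was called in either tissue (limma), and the epithelial medians were -0.22 and 0.01. An unadjusted p under 0.05 was found for 3 and 1 of the epithelial, 1 and 3 of the stromal and 0 and 0 of the ciliated cell markers. The shares called over all probes were 4.2% and 1.57%.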

How the data were processed

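Total RNA of both endometrial tissues of 22 cows was measured on 2-colour Agilent bovine arrays. Per the file headers and the labels, the authors scanned each array and extracted it with Agilent Feature Extraction 9.5.3.1, which subtracted background and normalised the dyes, and the deposited log10 ratio of sample (Cy5) over pool (Cy3) was used here, turned to log2. The deposited red signal intensity and its background flag served for the filter on dim spots. The value table of the series, on the log2 scale as deposited, served as an alternative.

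Arrays were centred on the median of all probes, spots of a probe and repeated arrays of a cow were averaged, and control spots and outlier flags were left out. Probes well above background and at 80 units or more in at least 22 of 44 samples were kept (14717 of 21475). The study's methods set the same sample number and unit minimum, but used present or marginal flags, so the filter used here is a different one. A gene of a list was read from its brightest probe. Gene names are those of the array's design, and coordinates come from RefSeq's ARS-UCD2.0 annotation through the symbol.

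Small, large and cyclic cows were fitted together in each tissue (limma 3.58.1, R 4.3.3) with Benjamini-Hochberg adjustment. Risen and fallen genes had a change of 1.5-fold or more and an adjusted p under 0.05. Large minus small was called at an adjusted p under 0.05. Intervals are at 95%. The tissue difference treated the tissues as separate samples, and the cow was a block in the paired fit: numbers are animals, whose tissues deviated together (r of 0.109 to 0.869, 21 of 22 cows matching their own other tissue best). The fit was tested on simulated data. The 17 gene lists (245 of 289 genes measured), the 12 marker lists, the members and the rule for named genes were chosen with earlier results of these data known. Named genes were the 10 largest rises and falls in which all small-embryo cows lay outside the cyclic range, the 10 largest large-embryo responses that differed by size and were not called with a small embryo, and the lowest p values for size and for tissue. A few other genes of the lists were named for their function after their values were seen. Alternatives were the background correction, filter, samples in the fit, test, repeated arrays, slide, scan, fertility label, source of the values and leaving out each cow. Added after seeing the data were centring on the filtered probes and leaving out the 4 cows of 1 slide. Array data hold no read depth; the number of cows limits the precision. With no dye swap a dye effect is the same in every group. Values of some genes of the lists, which the counts include, are not reported here.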

Additional observations from a re-analysis of the deposited data

Results flagged for a closer look

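Of 234 groups of 4 to 10 cows examined for 1 cow far from the rest, 34 stood out, where chance gives about 1 group in 20. The groups reuse the same cows and the list means hold some of the same genes, so the flags are not independent. The tissue difference stood out for 2 transcripts. No cause was tested.

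In the intercaruncular endometrium cow S4 was far above the other 4 small-embryo cows for the list means of receptor, JAK-STAT and IRF signalling (1.02 over the cyclic mean), antiviral effectors (2.87) and chemokines (1.73). It was so too for the log2 ratios of OAS2 (0.61), CXCL10 (1.00), CCL8 (1.00), IDO1 (1.33), LBP (0.35), C1S (1.29) and C1QB (0.43), and it was the lowest for PECAM1 (-0.82). Cow S5 was far below the other small-embryo cows for caruncular SPP1 (-3.11).

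Large-embryo cow Pregnant_9790 was the lowest of its group for the list means of cytokines in the caruncular (0.48) and intercaruncular (0.14) endometrium, intercaruncular complement (-0.14) and intercaruncular secreted antimicrobial genes (0.72). It was lowest for the log2 ratios of caruncular OAS2 (-0.056), intercaruncular BPI (-1.59), FABP3 in the caruncular (-2.16) and intercaruncular (-2.14) endometrium and intercaruncular DKK1 (-2.68). It was highest for CD93 (0.16 caruncular, -0.69 intercaruncular) and PECAM1 (0.64 caruncular, -0.32 intercaruncular). Large-embryo cow Pregnant_3803 was the highest for the intercaruncular luteolysis list (0.14), and Pregnant_926 the lowest for caruncular SPP1 (-1.82).

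Among the cyclic cows, Non-Pregnant_9786 was the lowest in the intercaruncular endometrium for the list means of receptor, JAK-STAT and IRF signalling (-0.25) and ISG15 conjugation (-0.39) and for MX2 (-3.87), OAS2 (-3.34) and C1QB (-1.66), and the highest for caruncular LBP (-3.26). Cow Non-Pregnant_3811 was the highest for caruncular ISG15 (-1.95). Cows Pregnant_9790 and Non-Pregnant_9786 were scanned together, apart from most other arrays.

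The change from cyclic to small-embryo cows differed between the tissues for MX2 (-2.32, intercaruncular minus caruncular) and for the transcript of probe A_73_106620 (-1.08), by the limma test of the difference.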

How the results depend on the processing

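With small-embryo against cyclic cows, the 618 caruncular calls became 31 under Welch's test, 19 with a fixed slide block (18 shared with the 618), 339 with a random one and 302 without cow S4 and the 3 large-embryo cows of its slide, a choice made after seeing the data. The 231 intercaruncular calls became 92, 76, 121 and 122 under the same settings and 362 with the scan as a block. Leaving out 1 cow gave 338 to 735 and 124 to 345.

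The 1849 caruncular calls of large against cyclic cows became 156 with a fixed slide block and 1010 without those 4 cows, and the 1743 intercaruncular calls 730 with the fixed block. Leaving out 1 cow gave 1609 to 2140 and 1579 to 1834.

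For large minus small, the 0 caruncular calls became 21 with a fixed slide block, 1 with the scan and 2 with fertility in the fit, and 0 to 27 on leaving out 1 cow, the 27 without cow Pregnant_9790. The 518 intercaruncular calls became 190 under Welch's test, 1169 and 883 with a fixed or random slide block, 1312 with the scan and 137 without the 4 cows, and 78 to 1253 on leaving out 1 cow. The 23 calls over both tissues became 45 with normexp, 3 without a filter, 1 in a fit of the compared groups alone, 0 under Welch's test, 303 and 105 with a fixed or random slide block, 290 with the scan, 160 with fertility and 7 without the 4 cows, and 0 to 458 on leaving out 1 cow.

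The 2 calls of the tissue difference became 18 with a fixed and 27 with a random replicate block for the cow, which pairs the tissues of a cow. Without such a block, leaving out 1 small-embryo cow gave 0 to 2.

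With a fixed slide block 5 of the caruncular genes reported as called against cyclic cows changed sign: CCL4 (-0.32), C1QC (-0.000789), CTSC (-0.039), FASLG (-0.046) and CXCL9 (-0.14). The cause of these shifts was not tested. Since only 1 slide a tissue holds a small-embryo and a cyclic cow, the fixed block rests largely on that slide. The array median was already 0, so that leaving out the centring changed nothing.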
